A study of Mus musculus with 8 samples.

Results

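Wild-type mouse keratinocytes, the epithelial cells of the epidermis, were profiled as cultures grown from the skin of E18.5 embryos of the C57Bl6 strain. The cultures were taken at confluency in a keratinocyte medium, and their total RNA was hybridised to Illumina expression arrays as biotin-labelled cRNA. The members are the 4 arrays whose titles name the wild type, of 8 arrays in the series, and the other genotype of the series, keratinocytes lacking type I keratins, enters no value given here. Arrays 1 and 1.1 are repeats of the same replicate by their description and were averaged as culture 1, so that the description rests on 3 cultures. No allele, transgene, drug or other treatment is named for these cells, and the labels do not say whether the cultures came from separate embryos, separate litters or pooled skin. The spread given below is therefore that between these 3 cultures, whatever separates them.

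The basal layer of the epidermis builds its filaments from the keratin pair Krt5 and Krt14, holds to the basement membrane through hemidesmosomes and divides. Cells that leave that layer switch to Krt1 and Krt10, and later assemble the cornified envelope, a shell of crosslinked proteins such as loricrin, small proline-rich proteins and late cornified envelope proteins. Keratinocytes placed in culture or in a wound bed are known to make Krt6, Krt16 and Krt17, which mark activated epidermis.

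Each array carried 25697 probes, of which 23978 had a gene symbol, giving 16593 genes. A gene is represented here by its probe with the highest mean intensity over the 3 cultures. The deposited intensities were linear and already background-subtracted and scaled to a common distribution: every array had the same minimum of -12.8, 75th percentile of 98.8 and maximum of 20141. Between 27.1% and 27.2% of the probes on an array were negative. Those negative values, mirrored around 0, set a background limit of 6.29, which 5% of the mirrored values exceed. Probe intensity depends on the probe as well as on the transcript, so an intensity places a gene in a broad band and does not rank genes by transcript number.

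The 4 keratins chosen as markers of cultured basal and activated keratinocytes all lay in the top band, whereas Krt6a and Krt15, given below, did not. Krt14, the basal type I keratin, read 17836 and 19131 on the repeat arrays of culture 1, 19131 in culture 2 and 17836 in culture 3. Its partner Krt5 read 9867 and 9479 in culture 1, 7933 in culture 2 and 9417 in culture 3. For Krt17, a type I keratin of activated epidermis, the readings were 19131 and 16655 in culture 1, 17836 in culture 2 and 18312 in culture 3. Krt6b, a type II keratin of activated epidermis, gave 14680 and 15319 in culture 1, 14680 in culture 2 and 13003 in culture 3. Krt5 was lowest in culture 2 and Krt6b in culture 3, and a weaker Krt6b probe read 2025 and 2004 in culture 1, 2017 in culture 2 and 1231 in culture 3. On their brightest probes all 4 stayed in the top band in every culture. The same number recurs across genes and arrays because the common scaling assigns the top ranks from a single set of values: the 100 values of the 25 brightest genes held 37 distinct numbers.

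Of the 16593 genes, 8226 (49.6%) were above the limit on all 4 arrays, 2480 on some arrays and 5887 (35.5%) on none. Among the genes above it on all arrays, 3353 had a mean intensity under 100, 3737 from 100 to under 1000, 1017 from 1000 to under 5000 and 119 at 5000 or more. The share of genes at 1000 or more was thus 6.85%, or 1136 genes. The 25 brightest genes held 7.82% of the summed intensity of the 8226 genes above the limit on all arrays. The 119 genes at 5000 or more held 22.5% of that sum, and the 1000 brightest held 63.5%. The shares below are read against these values.

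**Figure D1:**
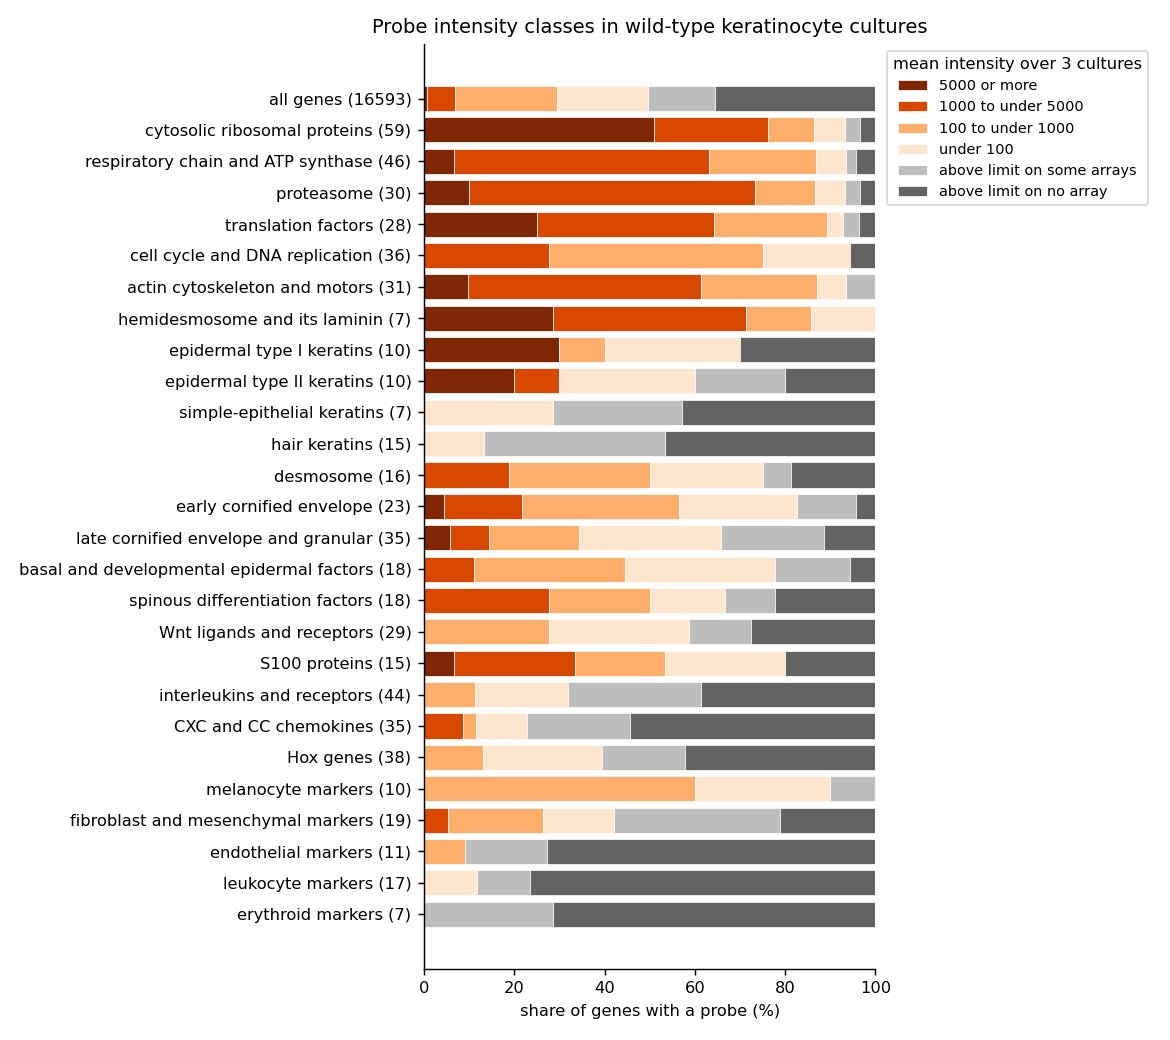
Share of genes (percent, horizontal axis) in each intensity class, for all genes and for 26 gene lists, with the number of genes that have a probe in brackets. Orange shades are genes above the background limit on all 4 wild-type arrays, by mean intensity over 3 cultures, and greys are genes above it on some arrays or on none. Ribosomal proteins have 30 of 59 genes at 5000 or more, while leukocyte markers have 13 of 17 above the limit on no array.

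Ribosomal proteins were the largest listed group among the brightest genes. Among the 25 brightest, 11 were cytosolic ribosomal proteins and 3 were keratins. Rplp1, a stalk protein of the large ribosomal subunit, read 19749 and 20141 in culture 1, 20141 in culture 2 and 19131 in culture 3. Rps20, a small-subunit protein, read 17492 and 18312 in culture 1 and 19749 in both other cultures. The list of cytosolic ribosomal proteins had 55 of 59 measured members above the limit on all arrays, 45 at 1000 or more and 30 at 5000 or more. Translation factors had 26 of 28 above it and 18 at 1000 or more, led by Eef1g, a subunit of elongation factor 1, with a mean of 10803 ± 432 (SD, n = 3). Beyond ribosomes, the 25 brightest included Anxa2, a calcium-dependent membrane-binding protein, S100a11, a calcium-binding protein that partners annexins, and the constitutive chaperone Hspa8. They also held Tuba1b, an alpha tubulin, the ATP synthase subunits Atp5b and Atp5g3, the RNA-binding protein Hnrnpab and the cytokine Mif. Ubb-ps and Gm6548 were among them too. The former is by its symbol a pseudogene of ubiquitin B, and whether its probe also reads related transcripts was not tested.

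Energy and protein turnover genes formed a broad bright layer. Subunits of the respiratory chain and ATP synthase had 43 of 46 members above the limit and 29 at 1000 or more. Proteasome subunits had 28 of 30 above it and 22 at 1000 or more, with Psma3 at 6616 and 6733 in culture 1, 6647 in culture 2 and 6897 in culture 3. Among 16 glycolysis genes 13 were above the limit and 7 reached 1000, Gapdh and Ldha with the highest means. Antioxidant genes had 30 of 31 above it, led by Fth1, the ferritin heavy chain, Prdx1, a peroxiredoxin, and Mt1, a metallothionein. All 20 genes of the amino acid response driven by Atf4 were above the limit, with Gars, glycyl-tRNA synthetase, at a mean of 9561. Proliferation genes were present at moderate intensity: 34 of 36 cell cycle and replication genes were above the limit and 10 reached 1000, among them the helicase subunit Mcm4, the cyclin Ccnd2 and the centromere histone Cenpa.

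Among the other keratins, levels ran from the top band to below the limit. Krt16, the type I partner of Krt6, read 12696 and 11668 in culture 1, 11245 in culture 2 and 7933 in culture 3, lowest in culture 3. On its brightest probe Krt6a was in a lower band than Krt6b, at 2815 and 2938 in culture 1, 3572 in culture 2 and 2795 in culture 3. Another Krt6a probe read 2155 and 2820 in culture 1, 2898 in culture 2 and 2110 in culture 3. The weaker Krt6b probe given above was below both on every array, so the order of these genes depends on the probe. Krt15, a type I epidermal keratin, was dim, with a mean of 16.6. The suprabasal keratin Krt10 read 926 and 919.6 in culture 1, 427 in culture 2 and 334 in culture 3. Its usual partner Krt1 was close to the limit in every culture, at 16.9 and 22.0 in culture 1, 14.4 in culture 2 and 13.8 in culture 3. Of 10 type II epidermal keratins 6 were above the limit on all arrays, and of 10 type I epidermal keratins 7 were. Krt2 and Krt77 among the former, and Krt9, Krt13 and Krt24 among the latter, were above it on no array. Of 15 hair keratins only Krt33a and Krt82 were above the limit on all arrays, with means under 100. Of 7 simple-epithelial keratins, Krt7 and Krt8 were above it on all arrays, and Krt18 and Krt20 on some.

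Among genes of attachment, the hemidesmosome list had the largest share at 1000 or more. All 7 measured genes of the hemidesmosome and its laminin, the complex that holds basal cells to the basement membrane, were above the limit and 5 reached 1000. The hemidesmosomal collagen Col17a1 read 7544 and 7748 in culture 1, 7388 in culture 2 and 8382 in culture 3, and the integrin subunit Itgb4 lay between 5007 and 6509 on the 4 arrays. Desmosome genes had 12 of 16 above the limit and 3 at 1000 or more, the plaque protein Pkp1 with the highest mean. Dsg1a, Dsg1c and Dsc2 were above it on no array. Cdh1, the E-cadherin of adherens junctions, had nearly the same level everywhere, at 1680 and 1839 in culture 1, 1772 in culture 2 and 1759 in culture 3. Gja1, encoding connexin 43, led the 10 measured connexins, of which 3 were above the limit on all arrays. Of 31 actin cytoskeleton and motor genes, 29 were above it and 19 reached 1000, with Actb, Tmsb4x and Arpc5 at the highest means.

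Envelope genes were present across both early and late lists. Of 23 early cornified envelope genes 19 were above the limit on all arrays and 5 reached 1000. Of 35 late envelope and granular genes 23 were above it and 5 reached 1000. Krtdap, a secreted protein of differentiating keratinocytes, read 9675 and 9542 in culture 1, 10529.7 in culture 2 and 6997 in culture 3. Sprr1b, a small proline-rich crosslinking substrate, read 6173 and 7244 in culture 1, 8631 in culture 2 and 4144 in culture 3. Both were highest in culture 2 and lowest in culture 3. Tgm3, Hrnr, Lce1a2 and Lce1h were above the limit on no array, and Lor, encoding loricrin, had a mean of 267. In bulk RNA of this kind, fewer cells expressing a gene and less of its RNA per cell cannot be told apart.

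Regulators above the limit were mostly in the dim and moderate bands, as were the genes of the array as a whole. Trp63, the master factor of stratified epithelium, read 3659 and 3835 in culture 1, 2879 in culture 2 and 3561 in culture 3. Of 18 basal and developmental epidermal factors 14 were above the limit and 2 reached 1000, Trp63 and then Tfap2a with a mean of 1348. Of 18 spinous differentiation factors 12 were above it and 5 reached 1000, led by Cebpb, Klf5 and Zfp750. The share at 1000 or more was 6.85% over all genes. Among signalling genes, 5 of 10 EGF receptor ligands and ErbB receptors were above the limit, against 49.6% of all genes. The ligand Epgn, also called epigen, lay between 4106 and 6509 on the 4 arrays. Nrg1 and Hbegf were also above the limit on all arrays, with means of 367 and 171. Tgfa, Egf and Ereg were above it on no array, though Tgfa, at 4.84 to 6.07, lay close to it. Wnt ligands and receptors had 17 of 29 above it, none at 1000 or more, with Fzd6 and Wnt10a at the highest means. Of 9 Hedgehog pathway genes 3 were above it, and the ligand Shh was above it on no array. Fibroblast growth factors and their receptors had 4 of 26 above it, Fgfr2 having the highest mean at 89.5.

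Hox genes, whose expression marks position along the body axis, were above the limit on all arrays for 15 of 38 measured members and on no array for 16. Hoxc6 read 431 and 417 in culture 1, 543 in culture 2 and 346 in culture 3. Hoxb7, Hoxa5, Hoxb2 and Hoxa7 also had means of 100 or more. Hoxd8, Hoxb5, Hoxb4, Hoxb6, Hoxa2, Hoxa4, Hoxb9, Hoxc9 and Hoxc13 lay under 100, as did Hoxa13. The highest of the 5 moderate means was that of Hoxc6, at 437.

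Defence genes differed by family. S100 proteins had 12 of 15 above the limit and 5 at 1000 or more, while CXC and CC chemokines had 8 of 35 and interleukins and their receptors 14 of 44. Antigen presentation and interferon response genes had 14 of 34 above it, among them B2m, the light chain of MHC class I, at a mean of 1127. Ifi27 and Irf9 of the same list were also above the limit on all arrays, with means of 300.8 and 136.1. Other members, the classical interferon-induced genes Mx1, Mx2, Oas2, Rsad2 and Ifit1, were above it on no array. Epithelial antimicrobial genes had 8 of 19 above it, Rnase4 and the beta-defensin Defb14 with the highest means.

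Families defined only by the letters of their symbols gave the extremes of the array. Of 126 symbol stems with at least 15 genes, covering 5650 genes, the highest shares above the limit on all arrays belonged to Cdc (27 of 28), Nup (15 of 16), Atg (14 of 15), Mrps (27 of 29), Vps (27 of 29) and Mrpl (43 of 47). These stems name cell division genes, nuclear pore proteins, autophagy genes, mitochondrial ribosomal proteins of both subunits and vacuolar sorting proteins. The lowest shares belonged to Tas (0 of 35), Vmn (2 of 139), Olfr (27 of 1058), Krtap (1 of 30), Tmprss (1 of 17) and, tied at the next place, Serpina and Ms (1 of 16 each). Taste, vomeronasal and olfactory receptors are receptors of sensory neurons and sensory cells, and keratin-associated proteins belong to hair. Olfactory receptor probes gave a further reading of the limit: between 7.37% and 8.13% of them exceeded it on a given array, and 2.55% did so on all 4.

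A probe under the limit did not show that its gene was off. Of 243 measured genes of the 7 housekeeping lists 221 (90.9%) were above the limit on all arrays and 15 were above it on none. Those 15 included the glycolytic enzyme Pgk1, Psma1 of the proteasome, Canx, the chaperone calnexin, and the ribosomal genes Rplp2 and Rpl17, alongside small heat shock genes of muscle such as Hspb3 and Hspb7. Where a gene had several probes and its brightest was above the limit, in 3120 genes, the next brightest lay in the same band for 40.1% and above the limit on no array for 17.0%. The median difference between such probes was 1.24 on the log2(intensity + 16) scale, larger than the difference between cultures for most genes.

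The 3 cultures were close to each other, and the repeat arrays closer still. Levels were compared as log2(intensity + 16), and the range of a gene is its highest minus its lowest culture on that scale. Over the 8226 genes above the limit on all arrays the median SD between cultures was 0.18 and the median range 0.35, while arrays 1 and 1.1 differed by a median of 0.10. The SD of the difference between arrays over these genes was 0.16 for the repeat pair, 0.42 for array 1 against 2, 0.41 for array 1 against 3 and 0.50 for array 2 against 3. Between the repeat arrays 0 genes differed by 1 or more, against 233, 235 and 380 genes for those pairs of cultures. Brighter genes varied less: the median SD was 0.19 in the dim and moderate bands, 0.16 in the bright band and 0.11 at 5000 or more. The top ranks of every array take their values from a single set, and the part of this common scaling was not tested.

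**Figure D2:**
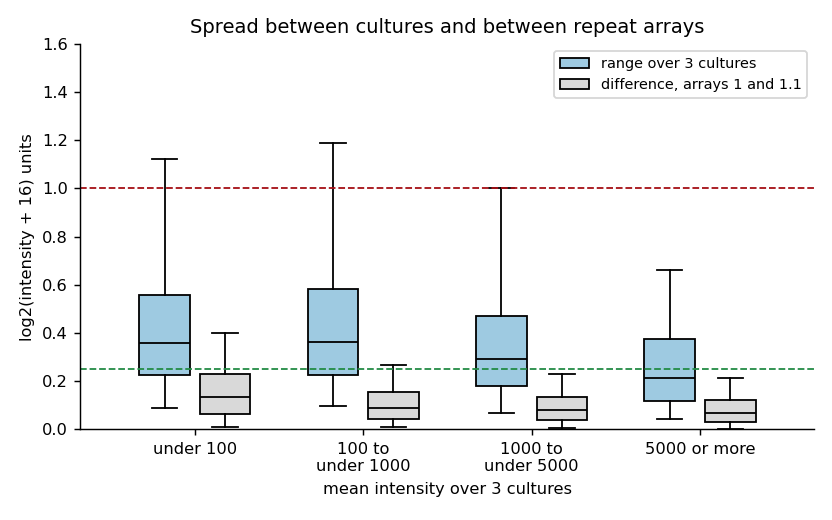
Range of a gene over the 3 cultures (blue) and absolute difference between arrays 1 and 1.1 (grey), in log2(intensity + 16) units, for genes above the background limit on all arrays, by mean intensity. Boxes are quartiles with the median, whiskers run from the 5th to the 95th percentile of genes, and dashed lines mark the ranges of 0.25 and 1 used to call genes steady and variable. The median range is 0.36 under 100 and 0.21 at 5000 or more.

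Genes with a range under 0.25 on that scale are called steady here, which for dim genes allows a larger fold in the intensity itself, and 2589 genes (31.5%) were. The share was 56.3% at 5000 or more, where the part of the common scaling was likewise not tested. Steady members made up 32 of 55 cytosolic ribosomal proteins above the limit, 29 of 43 respiratory chain and ATP synthase subunits and 21 of 28 proteasome subunits, with median ranges of 0.18, 0.16 and 0.19. Rps24 read 12294 on both arrays of culture 1 and 12399 in cultures 2 and 3. Anxa2 read 16655 and 16242 in culture 1 and 16242 in cultures 2 and 3. Among genes at 1000 or more, the splicing proteins Snrpb and Prpf3, the endoplasmic reticulum protein Erp29, Cdh1, the arginyl-tRNA synthetase Rars and the translation factor Eif3i were among the 12 with the smallest range.

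Genes with a range of 1 or more, which is a fold of at least 2 between cultures, are called variable, and 548 genes (6.66%) were. Culture 1 was the farthest from the other cultures for 97 of them, culture 2 for 219 and culture 3 for 232. In 6 of the 548 the repeat arrays of culture 1 differed by 0.5 or more. Another probe of the same gene was above the limit on all arrays for 114 of them, and for 63 of those (55.3%) it had a range of at least 1 as well. The count depended on the offset, with 1006 variable genes at an offset of 1 and 315 at 50. Without culture 2 the count was 239 and without culture 3 it was 231, of which 226 and 225 were among the 548.

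**Figure D3:**
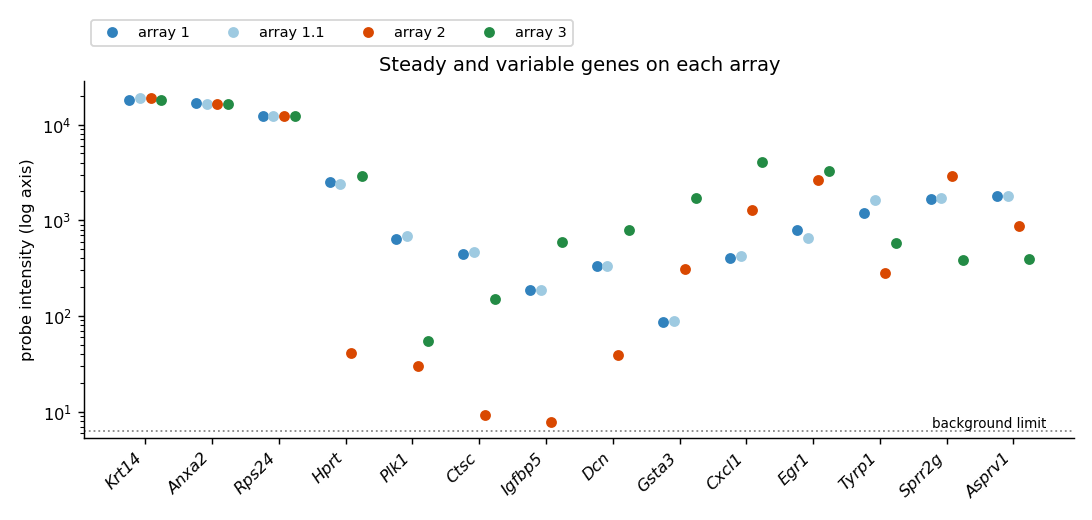
Probe intensity (log axis) on each wild-type array for 3 steady and 11 variable genes, array 1 and its repeat 1.1 in blue shades, arrays 2 and 3 in orange and green. The repeat arrays overlap for most genes, while Hprt reads 41.0 in culture 2 alone and Gsta3 runs from 85.6 on array 1 to 1701 in culture 3.

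Among genes above the limit on all arrays, the widest range was that of Hprt, an X-linked enzyme of purine salvage often used as a reference gene. It read 2520.1 and 2420.3 in culture 1, 41.0 in culture 2 and 2893 in culture 3. Its other probes gave 500.1 and 147 on array 1, 551 and 143 on array 1.1, 35.4 and 18 in culture 2, and 630.3 and 148 in culture 3, so that culture 2 was low on all of them. Zfp330, a zinc finger gene, came next with 1247 and 1186 in culture 1, 723 in culture 2 and 11.4 in culture 3. Its other probe, at 400 and 385 in culture 1, 408 in culture 2 and 466 in culture 3, did not share that drop. Ctsc, a lysosomal protease also called cathepsin C, read 441 and 465 in culture 1, 9.35 in culture 2 and 150.2 in culture 3, and culture 2 was lowest on all of its probes.

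Sex-linked transcripts separated culture 2 from the others. Eif2s3y, a Y-linked translation factor gene, read 1186 in culture 2 and between -4.02 and -0.178 on the other arrays. Kdm5d, a Y-linked histone demethylase, read 60.7 in culture 2 and was negative on the other arrays. Xist, the RNA of the inactive X chromosome, read 62.1 and 60.1 in culture 1, 5.89 in culture 2 and 59.0 in culture 3. Uty, also Y-linked, did not follow them, at 22.5 and 12.5 in culture 1, 27.8 in culture 2 and 24 in culture 3. The sex of the embryos is not labelled, and any other difference of culture 2 from the rest cannot be told apart from the one these genes mark.

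Markers of other skin cells differed between cultures. The fibroblast and mesenchymal list had 8 of 19 members above the limit on all arrays and 4 above it on none, the collagen Col1a2 and the receptor Pdgfrb among the latter. Dcn, encoding decorin of the dermal matrix, read 333 and 332 in culture 1, 39.4 in culture 2 and 790.3 in culture 3. Acta2, smooth muscle actin, read 1638 and 1546 in culture 1, 695 in culture 2 and 3752 in culture 3. Of the 8 members, 7 were highest in culture 3, against 34.8% of all genes above the limit, and 7 lowest in culture 2, against 35.4%. The exception was Sparc, a secreted matrix protein, which was lowest in culture 1 and highest in culture 2. The mean log2 level of the 8 was 7.43, 6.42 and 8.21 in cultures 1, 2 and 3, and the summed intensity of all 19 was 2883 and 2777 in culture 1, 1535 in culture 2 and 6114 in culture 3.

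Melanocyte markers had another order. Of 10 measured markers 9 were above the limit on all arrays, and 8 of those 9 were highest in culture 1, against 29.5% of all genes above the limit, and 8 lowest in culture 2, against 35.4%. Tyrp1, an enzyme of melanin synthesis, read 1185 and 1643 in culture 1, 282 in culture 2 and 574 in culture 3. Pmel, the fibril protein of melanosomes, read 976 and 882 in culture 1, 185 in culture 2 and 449 in culture 3. The markers' mean log2 level was 8.17, 6.78 and 7.23 in cultures 1, 2 and 3, and their summed intensity ran from 1587 in culture 2 to 4942 on array 1.1. Mlana was the member that differed least, with a range of 0.18. The counts above the limit on all arrays for other cell types were 1 of 11 endothelial markers, 2 of 17 leukocyte markers, 0 of 8 mast cell markers, 1 of 11 muscle markers, 2 of 9 nerve and Schwann markers, 0 of 7 erythroid markers, 3 of 9 Merkel cell markers and 6 of 11 hair follicle markers. Some of these members were well above it, namely Mbp with a mean of 356, Egfl7 with 274, Sox9 with 256, Cux1 with 241 and Tnni2 with 142. The pan-leukocyte gene Ptprc and the endothelial cadherin Cdh5 were above it on no array.

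Envelope genes often differed between cultures. Of the 19 early envelope genes above the limit 12 were variable, and of the 23 late ones 15 were, against 6.66% of all genes, and of 8 epithelial antimicrobial genes above it 6 were. Culture 3 was lowest for 16 of the 19 and for 21 of the 23, against 37.3% of all genes above the limit. Sprr2g, a small proline-rich protein, read 1683 and 1690 in culture 1, 2907 in culture 2 and 384 in culture 3. Asprv1, a protease that processes filaggrin, read 1773 and 1780 in culture 1, 872 in culture 2 and 398 in culture 3. The early list had mean log2 levels of 8.46, 8.96 and 7.71 in cultures 1, 2 and 3, and the late list 7.93, 7.92 and 7.09, while the mean of all genes above the limit was 7.60, 7.59 and 7.57. Klk7 and Klk6, skin serine proteases, were high in culture 1: Klk6 read 596 and 573 there, 87.8 in culture 2 and 110.3 in culture 3. Klk10 was instead highest in culture 2, at 3417, and Klk8 in culture 3, at 1514. Of 25 secreted and surface proteases above the limit, 6 were highest in culture 1, against 29.5% of all genes above it. Fibroblast and mesenchymal markers were highest in culture 3 and melanocyte markers in culture 1, as given above, and their part in these differences was not tested.

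**Figure D4:**
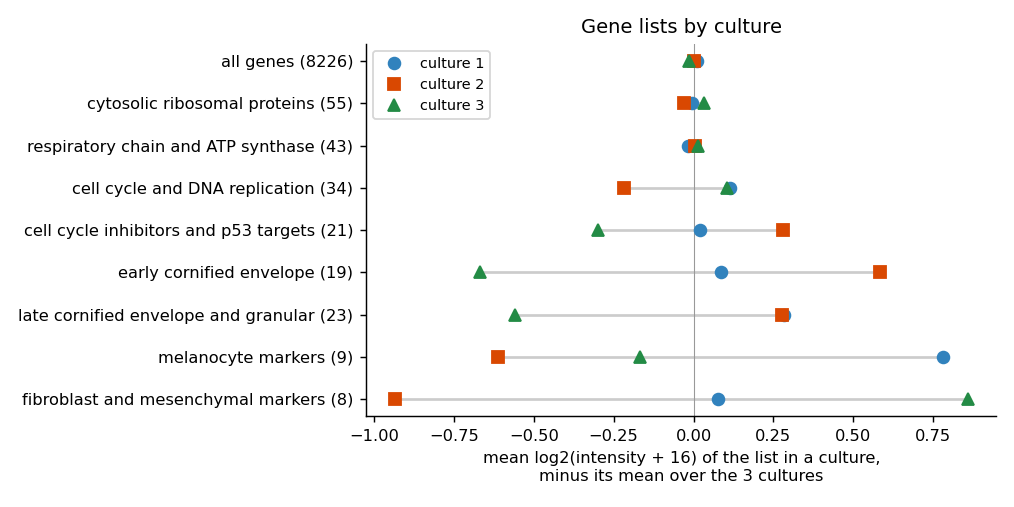
Mean log2(intensity + 16) of each gene list in cultures 1 (circles), 2 (squares) and 3 (triangles), minus the mean of the list over the 3 cultures, for genes above the background limit on all arrays (number in brackets). Grey lines join the lowest and highest culture of a list. Ribosomal and respiratory chain genes lie together, while fibroblast and mesenchymal markers run from 6.42 in culture 2 to 8.21 in culture 3 before centring.

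Proliferation and p53 target genes differed less than envelope genes. Cell cycle and replication genes had mean log2 levels of 8.87, 8.55 and 8.87 in cultures 1, 2 and 3, and 24 of 34 were lowest in culture 2, against 35.4% of all genes above the limit. Plk1, a mitotic kinase, was the extreme, at 641 and 692 in culture 1, 30.4 in culture 2 and 55.1 in culture 3, whereas the mitotic activator Cdc20 lay between 1396 and 1607 on all arrays. Cell cycle inhibitors and p53 targets had means of 8.25, 8.51 and 7.93, and 14 of 21 were highest in culture 2, against 35.7% of all genes above the limit. Of the 21, 4 were variable, against 6.66% of those genes, and 0 were steady, against 31.5%. Their median range was 0.70, against 0.35 for all genes above the limit. Cdkn1a, the inhibitor p21, read 2342 and 2609 in culture 1, 2831 in culture 2 and 1710.1 in culture 3.

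Inducible genes differed gene by gene. Cxcl1, a neutrophil chemoattractant, read 407 and 423 in culture 1, 1272 in culture 2 and 4033 in culture 3. Egr1, an immediate early transcription factor, read 789 and 660.2 in culture 1, 2662 in culture 2 and 3288 in culture 3, and Fos was also lowest in culture 1, at 199 and 196. Among 12 measured immediate early and AP-1 genes above the limit 5 were variable and 3 steady, Klf6 and Junb among the steady ones. Gsta3, a glutathione transferase, read 85.6 and 88.9 in culture 1, 313 in culture 2 and 1701 in culture 3, and its weaker probe was also highest in culture 3. Lcn2, an iron-binding antimicrobial protein, read 288 in culture 3 and between 20 and 23.6 on the other arrays. Krt8, a simple-epithelial keratin, was highest in culture 3 as well, at 162 against 27.4 in culture 2.

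Promoter windows, 250 bases before to 50 after the first RefSeq start of a gene in build GRCm38.p6, were matched to 13335 of 16593 genes (80.4%). The sequences that follow show the elements counted below in ribosomal genes, in the envelope genes Sprr1b and Krtdap and in other bright keratinocyte genes. At their first RefSeq start, Rpl38 and Rpl35 have a C followed by at least 4 pyrimidines, a feature of mRNAs of the translation machinery. They are the brightest such ribosomal genes in the table, with a chromosome left out of the choice. S100a11, Sprr1b and Krtdap are bright keratinocyte genes, and the basal marker Krt5 is given beside them. These 4 were chosen after their values were seen. Capitals mark the pyrimidine run at the start, TATAAA when it lies on the same strand from 40 to 16 bases before the start, and TGANTCA, the AP-1 element, anywhere in the window, which reads the same on both strands.
Rpl38 (chr11:114668330-114668629, plus strand): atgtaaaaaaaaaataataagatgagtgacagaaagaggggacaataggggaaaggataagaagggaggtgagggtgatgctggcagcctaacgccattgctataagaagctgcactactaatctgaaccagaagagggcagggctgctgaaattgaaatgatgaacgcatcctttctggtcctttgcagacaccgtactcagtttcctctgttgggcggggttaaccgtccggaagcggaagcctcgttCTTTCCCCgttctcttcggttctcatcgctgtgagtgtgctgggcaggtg
Rpl35 (chr2:39005082-39005381, minus strand): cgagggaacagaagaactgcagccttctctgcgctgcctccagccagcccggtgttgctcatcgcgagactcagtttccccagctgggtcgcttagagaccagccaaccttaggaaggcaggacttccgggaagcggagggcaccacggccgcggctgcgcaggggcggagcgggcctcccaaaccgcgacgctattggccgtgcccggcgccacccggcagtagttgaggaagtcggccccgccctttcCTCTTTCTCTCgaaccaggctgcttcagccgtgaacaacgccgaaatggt
S100a11 (chr3:93520246-93520545, plus strand): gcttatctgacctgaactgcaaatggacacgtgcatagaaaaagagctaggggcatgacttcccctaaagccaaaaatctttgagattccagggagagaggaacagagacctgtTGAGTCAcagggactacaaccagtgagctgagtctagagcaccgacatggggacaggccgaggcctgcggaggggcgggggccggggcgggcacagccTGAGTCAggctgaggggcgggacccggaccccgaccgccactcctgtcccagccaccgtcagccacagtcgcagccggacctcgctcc
Sprr1b (chr3:92438730-92439029, minus strand): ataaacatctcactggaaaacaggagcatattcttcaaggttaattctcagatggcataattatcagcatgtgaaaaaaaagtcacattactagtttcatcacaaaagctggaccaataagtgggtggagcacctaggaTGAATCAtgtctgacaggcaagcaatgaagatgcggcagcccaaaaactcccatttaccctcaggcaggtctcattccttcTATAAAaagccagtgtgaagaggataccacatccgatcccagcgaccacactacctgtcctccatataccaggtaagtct
Krtdap (chr7:30787655-30787954, plus strand): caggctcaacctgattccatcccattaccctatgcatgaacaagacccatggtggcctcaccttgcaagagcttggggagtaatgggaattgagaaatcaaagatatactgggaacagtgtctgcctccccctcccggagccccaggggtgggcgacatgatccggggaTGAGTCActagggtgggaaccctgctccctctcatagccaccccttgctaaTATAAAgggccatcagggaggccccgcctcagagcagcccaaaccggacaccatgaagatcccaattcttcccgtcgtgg
Krt5 (chr15:101712856-101713155, minus strand): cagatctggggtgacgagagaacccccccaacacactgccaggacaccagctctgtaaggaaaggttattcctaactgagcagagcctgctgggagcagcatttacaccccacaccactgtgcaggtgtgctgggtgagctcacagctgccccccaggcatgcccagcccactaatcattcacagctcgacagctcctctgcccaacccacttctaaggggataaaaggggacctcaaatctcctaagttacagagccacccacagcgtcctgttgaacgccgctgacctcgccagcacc

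Krt5 holds none of these letters in its window. TATAAA upstream of the start was found in 10 of 20 early envelope genes with a promoter (50%), in 7 of 32 late ones (21.9%) and in 0 of 50 ribosomal protein genes, against 2.72% of all measured genes and 1.99% of all 32851 promoters in the table. TGANTCA was found in 11 of 20 early and 8 of 32 late envelope genes and in 2 of 50 ribosomal genes, against 7.81% of all promoters in the table. A pyrimidine start was found in 11 of 50 ribosomal genes (22.0%) and in 0 of the 20 early and 32 late envelope genes, against 2.11% of measured genes and 2.51% in the table. It was sought only from the first annotated base, and no transcript start was measured. A run beginning a few bases away was missed, so these shares do not count the genes that lack the feature. The ratio of observed to expected CpG had a median of 0.91 for ribosomal genes, 0.12 for early and 0.14 for late envelope genes. Over the intensity bands it was 0.73 under 100, 0.80 from 100, 0.82 from 1000 and 0.85 at 5000 or more. Many envelope genes are neighbours and close relatives, so their promoters are not independent examples. For genes above the limit on no array (79.2% matched), on some (77.7%) and for variable genes (76.8%), fewer than 80% had a promoter, and the comparison is void for them.

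**Figure D5:**
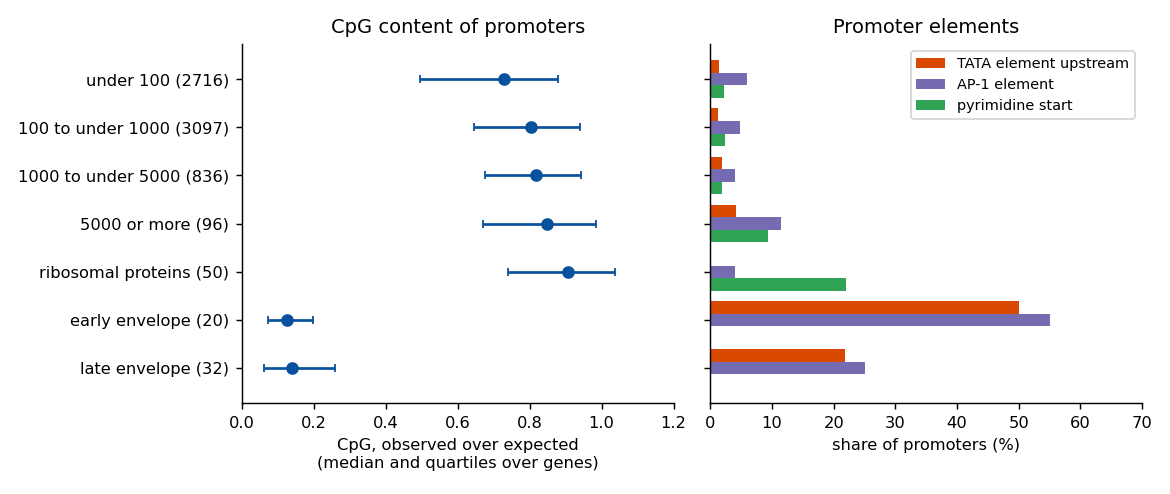
Promoter composition by intensity band and for 3 gene lists, with the number of promoters in brackets. Left, observed over expected CpG, median with quartiles over genes. Right, share of promoters (percent) with a TATA element 40 to 16 bases before the start, an AP-1 element in the window, or a pyrimidine start, as defined in the text. Early envelope genes have the lowest median CpG, 0.12, and TATA elements in 50%.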

How the data were processed

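Total RNA of wild-type keratinocytes was measured on 4 Illumina arrays of 3 cultures. Values were taken from the deposited series table, whose unit is a linear intensity for every probe on every array. Software and version are not given in the sources used here. Its negative values and shared quantiles show background subtraction and a common scaling before deposit. A further table of non-normalized signals was not used, because its 16 value columns match no sample label.

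Symbols came from the annotation of the array platform, and some may be outdated. Of 25697 probes 23978 had 1 symbol, 1719 had none, and gene IDs of 23962 were found in the mouse table of assembly GRCm38.p6. No probe position was used.

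Intensities were compared as log2(intensity + 16), with arrays 1 and 1.1 averaged on that scale for the spread and as intensities for the means. The background limit, the bands at 100, 1000 and 5000, and the ranges of 0.25 and 1 are defined in the report. A mean ± SD is over the 3 cultures. No test was made, since only 1 group is described, and list means and medians cover the members above the limit on all arrays. The number of arrays limits the precision.

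The members and the 54 gene lists were chosen with earlier results of these data known. The named genes were the 4 marker keratins, the 25 brightest genes, the 12 with the largest and the 12 with the smallest range at 1000 or more, the 12 with the largest range of all genes above the limit, sex-linked genes, Hox genes above the limit and, per list, the 3 brightest members, the one with the largest range and up to 3 above the limit on no array. Other named genes were chosen after their values were seen. Promoter sequences are from RefSeq.

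Alternatives covered the limit, the probe chosen per gene, averaging of arrays, bands by the lowest culture, offsets of 1 and 50, arrays 1 or 1.1 alone, a mean of at least 100, centring on ribosomal genes, the dimmest probe and each culture left out. Scripts were tested on simulated data. Python 3.11.15, numpy 2.4.6, pandas 2.3.3 and matplotlib 3.10.9 were used.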

Additional observations from a re-analysis of the deposited data

Results flagged for a closer look

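Probes without a gene symbol, which enter none of the values above, carried signal as well: 705 of 1719 (41.0%) were above the background limit on all 4 arrays, and the highest of their means was 19353.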

How the results depend on the processing

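Of 94 recomputed values for 23 results, 81 stayed close to the reported value, 13 moved and 0 changed sign. For counts, close was a wide label. It covered 3824 steady genes at an offset of 50, against 2589 reported. It also covered 804 genes at 1000 or more with the median-ranked probe, against 1136 reported. The number of genes above the limit on all arrays ran from 7165 with the median-ranked probe of each gene to 8617 without culture 1. Offsets moved the count of variable genes from 548 to 1006 at an offset of 1 and to 315 at 50. A larger offset makes log2 differences smaller by construction, most of all for dim genes. Restricting it to genes with a mean of at least 100 left 326 variable and 1576 steady genes, because fewer genes enter. Leaving out each culture in turn gave 231 to 392 variable and 4397 to 5147 steady genes, since a range over fewer cultures is smaller by construction. Centring on ribosomal protein genes shifted the cultures by -0.02, -0.07 and 0.09 on the log2 scale and gave 644 variable and 2302 steady genes. With the stricter limit of 8.33, leukocyte markers above it on all arrays numbered 1 and olfactory receptors 15, and with the median-ranked probe leukocyte markers again numbered 1. Against the dimmest probe of a gene, in place of the next brightest, the median difference from the brightest was 2.05. Differences between cultures in the melanocyte, fibroblast and envelope lists kept their direction at offsets of 1 and 50. An offset barely alters the order of cultures within a gene, so that outcome was nearly fixed in advance. With array 1 or 1.1 alone, the melanocyte difference was 1.37 or 1.41 and the late envelope difference 0.83 or 0.85. The fibroblast and early envelope differences take no value from culture 1, so that setting could not test them. Such values are counted among the 81. The number of arrays limits precision, and values near the background limit have no reliable order. No paired analysis was possible because only 1 group is described and no test was made.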
